A study of Homo sapiens with 9 samples.

Results

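The drift of the culture over time was followed in 4 libraries of MP41 cells, a uveal melanoma line, that had received the control mimic miR-CTR. They are the libraries collected 6, 12, 24 and 48 h after transfection, and they are 4 of the 9 libraries of the series. The contrast was the mean of the 24 and 48 h libraries (late) minus the mean of the 6 and 12 h libraries (early), computed for each of 14839 genes on the normalized log2 scale, and no gene was selected. The cells of this contrast were all given the same synthetic control RNA at 66 nM by lipofection, and the labels separate the libraries by the time since transfection. The other libraries came from cells given miR-16 at the same dose and times, and from cells collected at 0 h, before any transfection. MP41 is a single established line, grown here as a monolayer with serum, and polyA RNA was sequenced. There was 1 library for each time and mimic. A difference therefore has no replicate check, no p-value was computed, and time since transfection cannot be told apart from anything else that differed between these wells. Medium, density and cell counts were not measured in the files used here, and their part in the values below was not tested.

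In a growing culture, cells deplete nutrients and growth factors and come into contact with each other as they divide. Several transcript programmes are known to follow such conditions. YAP and TAZ, the effectors of the Hippo pathway, work with TEAD factors and are restrained by cell contact. FOXO factors are restrained by growth factor signalling, and their targets are raised when it falls. Ribosome biogenesis consumes much of the capacity of a growing cell and follows its growth rate. The genes of DNA replication and mitosis are transcribed in waves during the cell cycle. Uveal melanoma derives from melanocytes of the eye, whose identity and pigment production are driven by MITF and SOX10.

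The 4 control libraries held between 21660000 and 27370000 reads over the listed genes, recovered from the values themselves, and their medians lay between 9.13 and 9.17. The 10 most abundant genes took between 5.35% and 6.13% of the reads. The melanocytic label was borne out by the defining genes. MITF had values of 13.20, 13.27, 13.40 and 13.67, SOX10 13.41, 13.57, 13.81 and 14.13, and PMEL 16.55, 16.54, 16.67 and 17.22 (throughout, 4 values are in the order 6, 12, 24 and 48 h). TYR, TYRP1 and MLANA lay at 13.95 or above in all 4 libraries. None of 7 epithelial, 5 endothelial and 6 leukocyte markers is among the listed genes. Of 6 fibroblast markers, 4 are listed, with 1 rise and 1 fall. LUM rose from 7.09 and 7.36 to 8.11 and 8.57, PDGFRB fell from 4.33 and 4.63 to 3.52 and 3.60, PDGFRA had 5.02, 4.58, 4.88 and 3.95 and COL1A1 8.52, 8.57, 8.86 and 8.04. RNAs without a polyA tail, which report on the selection of polyA RNA, did not separate the windows. Their summed level (log2) was 8.53, 8.25, 7.70 and 8.92, and 0 of 5 members were called.

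A gene was said to rise or fall when the late minus early difference was past 0.5 on the log2 scale and the windows did not overlap, that is, when both late values lay beyond both early ones. By this rule 1174 genes rose, which is 7.91% of all genes, and 838 fell, which is 5.65%. The median difference over all genes was -0.005, and the 5th and 95th percentiles were -0.55 and 0.63. Among risers the median size was 0.68, and 183 rose by more than 1. Among fallers it was 0.66, and 125 fell by more than 1. A further 73 genes were past 0.5 upwards and 62 downwards with windows that overlapped. Weakly expressed genes weighed on both counts: 585 risers and 414 fallers were among the 3710 genes in the lowest 25% of expression, where the median counting standard error (SE) of a difference was 0.219, against 0.027 in the highest 25%. Among the remaining 11129 genes, 589 rose (5.29%) and 424 fell (3.81%). A counting SE covers the sampling of reads only, not the spread between cultures. In bulk RNA such as this, fewer cells that express a gene and less of its RNA per cell cannot be told apart. The 95% counting interval excluded 0 for 1124 of the risers and 795 of the fallers. The genes nearest to the threshold show how finely it divides: MSMO1, KIF13B and TRAPPC9 were just inside at 0.505, and ALDH4A1, CTNNB1 and HLTF just outside at 0.50. On the falling side, DIEXF, CRIM1 and HJURP were just inside at -0.505, and CCDC138, BRIX1 and RNF144B just outside at -0.50.

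**Figure D1:**
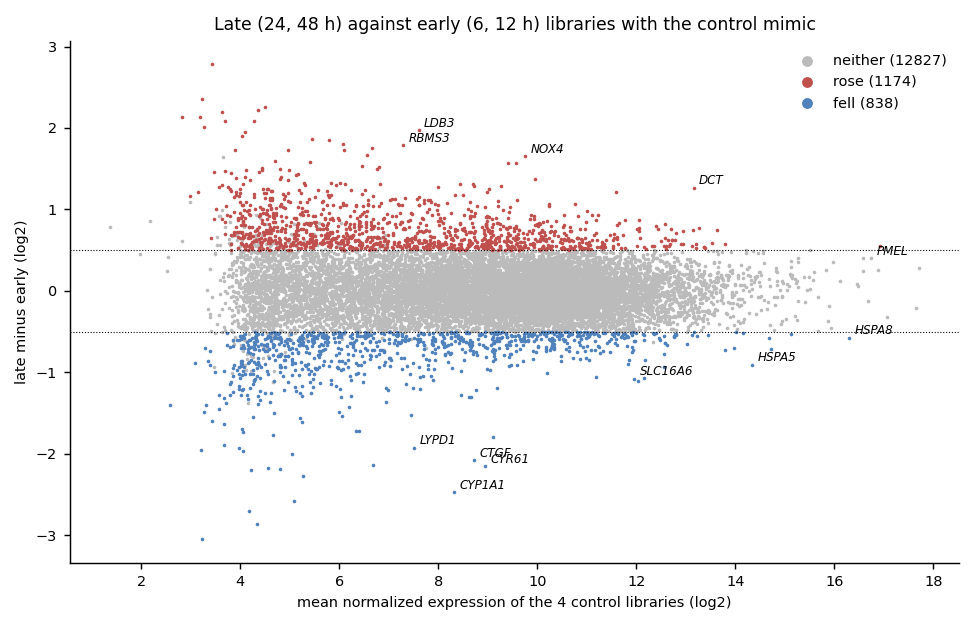
Late minus early difference of each gene (vertical axis, log2) against its mean normalized expression in the 4 control libraries (horizontal axis, log2), with 1 point per gene and dotted lines at the threshold of 0.5 in each direction. Red points are the 1174 genes that rose and blue points the 838 that fell, and the scatter of the differences widens towards low expression.

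Most called genes had values ordered in time. The call already sets both late values beyond both early ones, so only the steps within each window were free. Of the risers, 766 (65.2%) had a higher value at each later time, and 1027 of 1174 were higher at 48 h than at 24 h. The fallers were alike, with 549 (65.5%) lower at each later time and 711 of 838 lower at 48 h than at 24 h. Against the mean of the early libraries, risers stood at a median of 0.52 at 24 h and 0.86 at 48 h, and fallers at -0.52 and -0.80. Between 6 and 12 h, 888 genes differed by more than 0.5, between 12 and 24 h 1112, and between 24 and 48 h 1736. The window labels thus cover unequal steps, and the 48 h values lay farthest out. Leaving out the 48 h library gave 780 risers, of which 623 were among the original ones, and 627 fallers (449 shared). Leaving out the 24 h library gave 1921 risers and 1610 fallers, and leaving out the 12 h library gave 1642 and 1403. With a library left out, fewer values must lie apart, so the rule is looser. Without the 12 or the 24 h library the windows also lie farther apart in time. Counts with a library left out, here and below, are therefore not on the same footing as the reported ones. Of the 110 called genes that the naming rule and later additions chose, 42 lost the call without the 48 h library, 23 without the 6 h library, 4 without the 12 h library and 3 without the 24 h library, and such values stand beside many of the genes described below.

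The library taken before transfection showed whether the late cells had moved away from the starting culture or back towards it. For 1088 of the 1174 risers (92.7%) both late values were above the 0 h value, and for 768 of the 838 fallers (91.6%) both were below it. In the other 86 risers and 70 fallers, the 0 h value already lay among or past the late values. Among these was MKI67, which encodes the proliferation marker Ki-67, with 12.55 at 0 h, between its late values of 12.66 and 12.29 and below its early values of 13.21 and 12.87. The 0 h value was within or on the side of the early values for 820 risers and 585 fallers.

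Above the lowest 25% of expression, the largest rises joined structural, metabolic and melanocytic genes. LDB3, a PDZ and LIM domain protein of the muscle Z-disc, lies on chromosome 10 from 86668449 to 86736068 (GENCODE 29 on GRCh38) and had values of 6.32, 6.91, 7.99 and 9.18. The late values were both well above the early ones, by 1.97 on average (counting SE 0.115), or 3.92-fold. RBMS3, which encodes an RNA-binding protein, had 6.31, 6.47, 7.47 and 8.88, a difference of 1.78. NOX4, an NADPH oxidase that produces hydrogen peroxide, had 8.83, 9.03, 9.85 and 11.31, a difference of 1.65 (SE 0.053). In all of these the windows stood apart and the 48 h library was the highest of the series with this mimic. PADI2, a peptidylarginine deiminase, had 8.52, 9.03, 10.03 and 10.67 (1.58), and ST6GALNAC2, a sialyltransferase, 8.43, 8.82, 9.40 and 11.00 (1.58). CRYL1, an enzyme of sugar acid metabolism, had 9.07, 9.45, 10.18 and 11.08 (1.37), and ALDH6A1, an enzyme of valine breakdown, 7.27, 7.46, 7.97 and 9.31 (1.27). Matrix genes were represented by HAS2, a hyaluronan synthase, with 8.03, 8.06, 8.84 and 9.87 (1.31), and COL9A1, a collagen chain, with 8.55, 8.71, 9.32 and 10.52 (1.29). C10orf11, a gene of melanocyte differentiation, had 7.72, 7.86, 8.50 and 9.71 (1.32). KLHL41, a kelch protein known from muscle, had 8.01, 8.13, 8.57 and 10.14 (1.28). The size of several of these rises rested on the last time: without the 48 h library, 9 of the 12 differences shrank by more than 1.5 times, to between 0.50 and 1.08, and KLHL41 was no longer called (0.50), while the other 11 were. Without the 24 h library ST6GALNAC2, KLHL41 and ALDH6A1 grew to 2.38, 2.07 and 1.94.

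Above the same level of expression, the largest falls were led by a xenobiotic enzyme and by the CCN proteins. CYP1A1, a cytochrome P450 induced by the aryl hydrocarbon receptor (AHR), lies on chromosome 15 from 74719542 to 74725610 and had 9.69, 9.41, 7.81 and 6.34. Both late values were below both early ones, by 2.48 on average (SE 0.096), or 5.56-fold, and also below the 0 h value of 8.72. CYP1B1, another AHR target that was looked up after the fall of CYP1A1 was seen, had 6.73, 6.08, 4.15 and 4.11, a difference of -2.28 (SE 0.262) in a gene of the lowest 25% of expression. TIPARP, a further AHR target, had 8.97, 8.82, 9.07 and 9.25 and was not called. CYR61, a matricellular CCN protein, had 10.44, 9.60, 8.78 and 6.95 (-2.15, SE 0.076), and its relative CTGF 10.11, 9.41, 8.34 and 7.02 (-2.08, SE 0.079). Neither gene's windows overlapped, and each value was lower than the previous one. LYPD1, a GPI-anchored modulator of nicotinic receptors, had 8.56, 8.40, 7.61 and 5.50 (-1.92). HSPB7, a small heat shock protein, had 10.06, 9.93, 8.78 and 7.61 (-1.80). ITIH3, a hyaluronan-binding secreted protein, had 8.34, 8.09, 7.45 and 5.92 (-1.53), and PRICKLE1, of the planar polarity pathway, 7.87, 7.39, 6.93 and 5.61 (-1.36). ANXA1, a phospholipid-binding annexin, had 9.34, 9.28, 9.01 and 7.0 (-1.30) and was carried by the last time. Without the 48 h library its difference was -0.30 and it was not called, while the other 11 falls were, with CYR61 at -1.24, LYPD1 at -0.87, ITIH3 at -0.76, PRICKLE1 at -0.70 and VGF at -0.74. Without the 24 h library LYPD1 was at -2.98 and ANXA1 at -2.31. VGF, a neuropeptide precursor, had 9.23, 9.31, 8.53 and 7.41 (-1.30), and TNFRSF12A, the receptor for TWEAK, 8.26, 8.20, 7.31 and 6.74 (-1.20). The pseudogene SLC16A6P1 had 9.17, 9.01, 8.20 and 7.42 (-1.28). Its parent SLC16A6, a monocarboxylate transporter family member, had 12.64, 12.36, 11.75 and 11.09 (-1.08), and reads of this pair could be split between the copies by the counting.

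**Figure D2:**
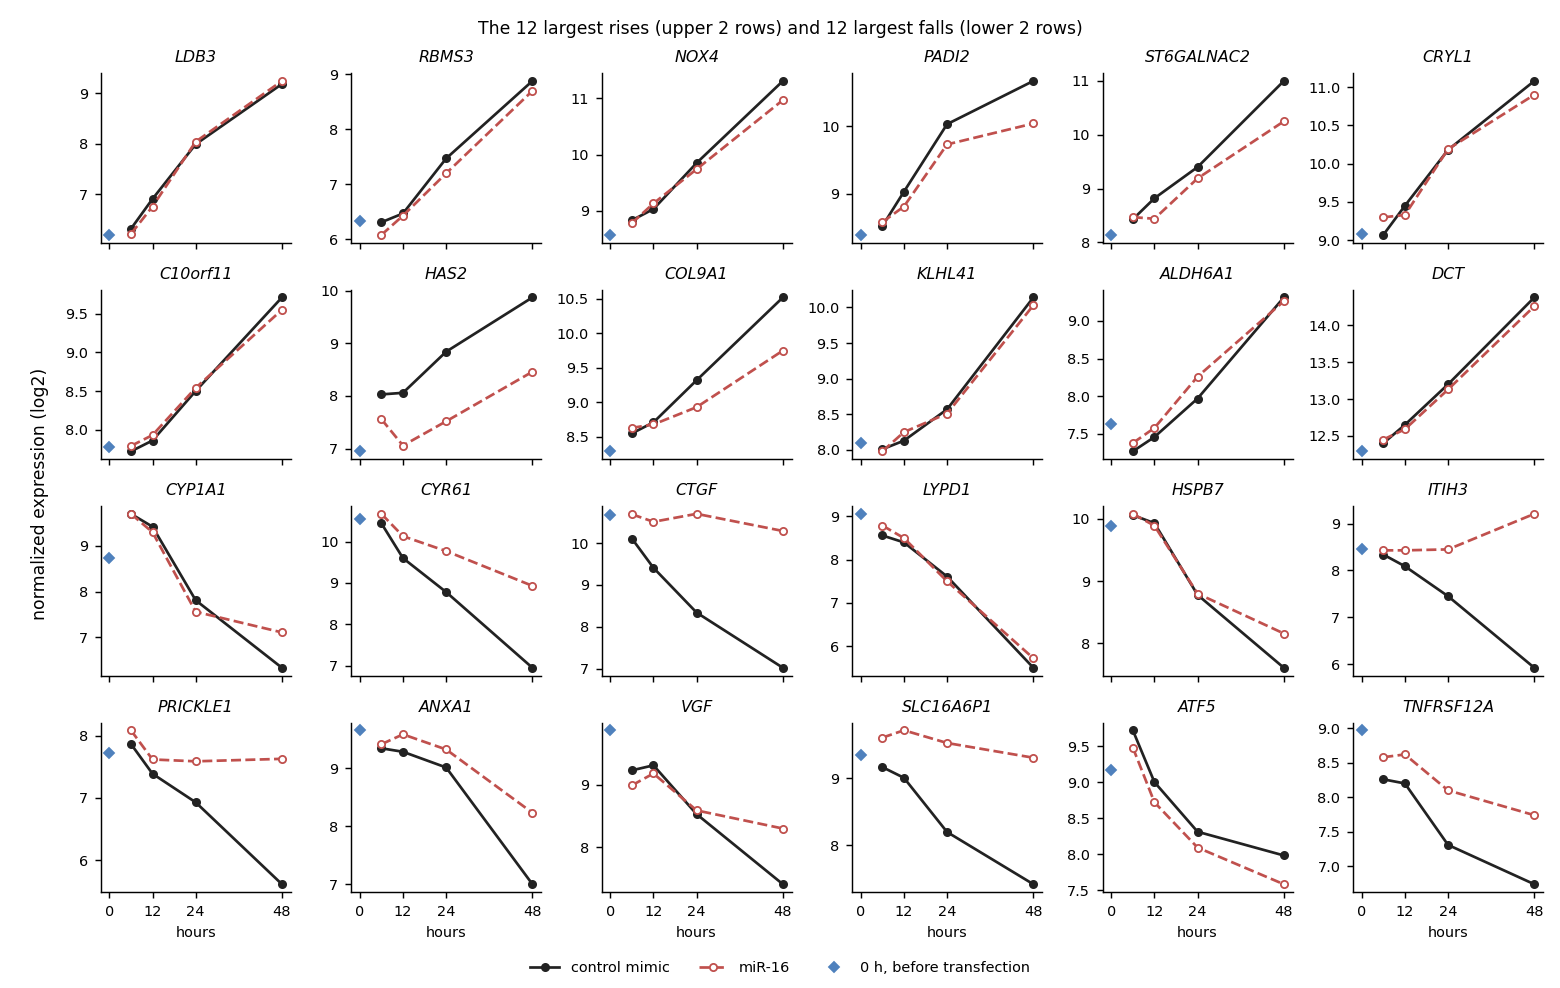
Normalized expression (vertical axis, log2, with its own range in each panel) against hours after transfection for the 12 largest rises and the 12 largest falls above the lowest 25% of expression, with the control mimic as filled points and a solid line, miR-16 as open points and a dashed line, and the 0 h library as a diamond. In the control series the late points lie beyond the early ones in every panel, and CTGF, ITIH3 and PRICKLE1 are examples in which the miR-16 line stays near its start or above it.

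Pigment cell genes were higher in the late libraries. Of 21 measured members of a list of melanocyte lineage and pigmentation genes (23 listed), 7 rose (33.3%, against 7.91% of all genes) and 0 fell. A difference above 0 was found for 20, with a median of 0.40 against -0.005 over all genes. DCT, the dopachrome tautomerase of eumelanin synthesis, had 12.40, 12.65, 13.20 and 14.38, a difference of 1.26 (SE 0.016). TRPM1, a channel that MITF controls, had 10.10, 10.06, 10.45 and 11.58 (0.94), and S100A1, a calcium-binding protein, 10.30, 10.41, 10.77 and 11.79 (0.92). For all of these the windows were separate and most of the distance lay between 24 and 48 h. The remaining risers of the list were S100B, SLC24A5, EDNRB and RAB27A. The central regulators moved less: the difference of MITF was 0.30, that of SOX10 0.48 and that of PMEL, the melanosome matrix protein, 0.40, and none passed the threshold. TYRP1 was the exception, at -0.20 with 17.77, 17.75, 17.66 and 17.45. Without the 48 h library 2 members of the list rose, DCT had 0.68, and TRPM1 (0.37) and S100A1 (0.42) were not called. Without the 24 h library 13 members rose, with TRPM1 at 1.5 and S100A1 at 1.44.

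Genes of growth restraint were among the risers. Of 19 FOXO targets and related genes, 10 rose (52.6%, against 7.91% of all genes) and 0 fell, the other 9 were not called, and the median was 0.54. KLHL24, a kelch protein of substrate turnover, had 9.49, 9.95, 10.59 and 10.94, a difference of 1.04 (SE 0.042). TXNIP, the thioredoxin-interacting inhibitor of glucose uptake, had 9.42, 9.69, 10.15 and 10.57 (0.80, SE 0.046), and YPEL5 9.05, 9.27, 9.66 and 10.26 (0.80). Each of these was higher at every later time, with no overlap between the windows. The others were YPEL2, YPEL3, PINK1, SESN3, CCNG2, CITED2 and PIK3IP1. Without the 6 h library, or without the 48 h library, 5 members rose. YPEL5 was not called without the 48 h library (0.50), where 1 member fell. Regulators of the step from G1 into S phase were divided, with a median of -0.21. Of 21 members 3 were higher (14.3%, against 7.91% of all genes) and 2 lower (9.52%, against 5.65%). RBL2, the pocket protein p130 of resting cells, had 8.43, 8.84, 9.24 and 9.80 (0.88), and its relative RBL1 (p107), which is made by cycling cells, 9.75, 9.51, 9.11 and 9.10 (-0.52). CDKN1C, a CDK inhibitor, had 6.52, 6.32, 6.85 and 7.32 (0.66) and is in the lowest 25% of expression, so above it 2 members rose. CCND1, the D-type cyclin that answers to mitogens, also rose, from 13.33 and 13.69 to 13.87 and 14.31 (0.58), and CCNE2, a cyclin of S phase entry, fell from 10.83 and 10.36 to 10.24 and 9.72 (-0.62). The calls of CDKN1C (0.43), CCND1 (0.36) and CCNE2 (-0.36) were lost without the 48 h library, and those of CCND1 (0.40), CCNE2 (-0.38) and RBL1 (-0.40) without the 6 h library. MYC had 12.27, 12.29, 12.10 and 12.10 (-0.18), CDKN1A 12.49, 12.78, 12.45 and 12.39 (-0.22) and CDKN1B 10.52, 10.37, 10.46 and 10.69 (0.13), and none of these was called.

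The making of ribosomes showed the reverse. Of 24 nucleolar factors of ribosome biogenesis 12 fell (50%, against 5.65% of all genes) and 0 rose. All 24 had a difference below 0, and the median was -0.51, the lowest among the lists with 9 or more members. NOP2, an rRNA methyltransferase, had 11.49, 11.39, 10.88 and 10.54 (-0.73, SE 0.031), NOP16, a factor of the large subunit, 11.05, 10.82, 10.33 and 10.11 (-0.72), and RRP12, which acts in subunit export, 10.44, 10.27, 9.89 and 9.44 (-0.69). Every late value was below every early one in these genes. Many members stood close to the threshold, and their number moved with the choice of libraries. Without the 48 h library 3 fell, RRP12 being at -0.46, and without the 6 h library 6. Without the 24 h library 16 fell, and without the 12 h library 17. Of 85 ribosomal proteins, the products these factors assemble, 0 were called, and the median was 0.10. Nucleolar genes are often bound by MYC at the E-box CACGTG. This motif was in 8 of the 18 promoters of the list with an entry (44.4%), searched on both strands from 250 bases before to 50 after the start, against 7.43% of all promoters of the table and 10.4% of those of the tested genes. This share describes the list and does not use the contrast. Of the 9 members with an entry that fell, 4 hold the motif and are shown with it in capitals (RefSeq, GRCh38.p14, strand of the gene, 30 bases).
NOP2, chr12:6568242-6568271, reverse strand: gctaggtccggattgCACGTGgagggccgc
RRP9, chr3:51941892-51941921, reverse strand: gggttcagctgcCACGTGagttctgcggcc
PES1, chr22:30591880-30591909, reverse strand: tccttggcagggCACGTGcgggaggaagtg
WDR43, chr2:28894658-28894687, forward strand: cgcacggacgaaCACGTGgctgcagcgggg

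DNA replication and mitosis genes were lower late, with small differences that almost all had the same sign. Of 41 replication genes 7 fell (17.1%, against 5.65% of all genes) and 0 rose, 38 were below 0, and the median was -0.32. Of 40 mitosis genes 7 fell (17.5%) and 0 rose, all 40 were below 0, and the median was -0.34. RRM2, the subunit of ribonucleotide reductase that sets nucleotide supply in S phase, had 13.09, 12.80, 12.41 and 11.94 (-0.77, SE 0.018). ORC1, of the origin recognition complex, had 10.58, 10.10, 9.77 and 9.42 (-0.74), and CLSPN, the replication checkpoint protein claspin, 10.72, 10.54, 10.13 and 9.67 (-0.73). Among mitotic genes, CDC20, the activator of the anaphase-promoting complex, had 11.83, 11.36, 11.05 and 10.76 (-0.69, SE 0.029). PLK1, a mitotic kinase, had 11.94, 11.52, 11.14 and 11.05 (-0.64), CCNB1, the mitotic cyclin, 12.90, 12.61, 12.23 and 12.11 (-0.58), and MKI67 13.21, 12.87, 12.66 and 12.29 (-0.56). The windows of these genes did not overlap, yet the early libraries also differed from each other. Relative to the 0 h library the medians of the mitosis list were 0.31, 0.08, -0.14 and -0.20, so the 6 h library stood above the starting culture. Without the 6 h library 1 mitosis and 3 replication genes fell, without the 12 h library 18 and 13, without the 24 h library 11 and 10, and without the 48 h library 4 and 4. Without the 6 h library CDC20 was at -0.46, CCNB1 at -0.44, PLK1 at -0.42 and MKI67 at -0.40, and without the 48 h library MKI67 was at -0.38 and CLSPN at -0.50, none of them called.

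The promoters of these lists carry known cell cycle motifs. The cell cycle homology region TTTGAA was in 23 of 34 promoters of mitosis genes (67.6%), against 15.4% of all promoters and 9.57% of those of the tested genes, and the E2F site TTTCCCGC in 11 of 35 promoters of replication genes (31.4%), against 1.66% and 2.61%. These shares describe the lists and do not use the contrast. Of the members with an entry that fell, 4 of 6 mitosis genes and 2 of 6 replication genes hold the motif. They are shown with the motif (or its reverse complement) in capitals. The first 4 carry the cell cycle homology region, and the last pair carries the E2F site.
PLK1, chr16:23678848-23678877, forward strand: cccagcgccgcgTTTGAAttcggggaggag
MKI67, chr10:128126453-128126482, reverse strand: ttagcgccagaaTTTGAAtcttcgttttcg
CDC20, chr1:43358791-43358820, forward strand: cctctcgtacccTTCAAAtcgcgctccgcc
CCNF, chr16:2429350-2429379, forward strand: gggccgggtgcgTTTGAAaactggggtggg
CLSPN, chr1:35769965-35769994, reverse strand: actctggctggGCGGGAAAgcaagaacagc
UHRF1, chr19:4909476-4909505, forward strand: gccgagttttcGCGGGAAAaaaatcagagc

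Chaperones were lower in the late libraries, in the endoplasmic reticulum (ER) and in the cytosol. Of 17 ER chaperones and genes of the unfolded protein response 5 fell (29.4%, against 5.65% of all genes) and 0 rose. Below 0 were 16, and the median was -0.41. HSPA5, the ER chaperone BiP, had 14.50, 15.07, 14.12 and 13.64, a difference of -0.90 (SE 0.010) with windows apart, although its 6 and 12 h values also differed from each other. HSP90B1, its HSP90 partner in the ER, had 14.98, 15.16, 14.61 and 14.11 (-0.71), and PDIA4, a disulfide isomerase, 13.15, 13.56, 12.89 and 12.51 (-0.66). The list was uneven in time: relative to 0 h its medians were -0.21, 0.06, -0.44 and -0.72. Without the 12 h or the 48 h library 2 members fell, HSP90B1 (-0.46 without the 48 h library) and PDIA4 (-0.45 and -0.46) not among them, and without the 6 h or the 24 h library 9 and 8. Of 14 heat shock proteins 3 fell (21.4%, against 5.65% of all genes) and 0 rose (median -0.34). HSPA8, the constitutive cytosolic HSP70, had 16.53, 16.64, 16.01 and 16.01 (-0.57, SE 0.005). The inducible pair HSPA1A (-0.70) and HSPA1B (-0.59) fell too, and reads cannot be assigned with certainty between these near-identical copies. Without the 6 h or the 24 h library 5 heat shock proteins fell, and without the 12 h library 2, HSPA1B being at -0.46. Of 25 ATF4 targets, genes of amino acid supply and stress, 2 fell and 0 rose (median -0.06), and this share of 8% is near the 5.65% of all genes. The 2 were the transcription factors ATF5, with 9.72, 9.0, 8.31 and 7.98 (-1.22), and DDIT3, with 9.79, 9.75, 9.11 and 9.11 (-0.66). Without the 24 h library 4 members of the list fell. TRIB3, another target, had 10.37, 10.56, 10.42 and 10.56 and was not called. The CCAAT box, bound by NF-Y and part of the ER stress element, was in 15 of 17 promoters of the ER list (88.2%), against 35.7% of all promoters and 37.1% of those of the tested genes. It was not particular to this list, as it was also in 26 of 34 promoters of mitosis genes (76.5%). There, all 6 members with an entry that fell hold it. In the ER list all 5 members that fell hold it, and these are shown.
HSPA5, chr9:125241542-125241571, reverse strand: atgttatctaccATTGGtgaacgttagaaa
HSP90B1, chr12:103930179-103930208, forward strand: cggagccatttgATTGGagaaaagctgcaa
PDIA4, chr7:149028709-149028738, reverse strand: gttgtggcgcagCCAATcagaagggggcac
SDF2L1, chr22:21642083-21642112, forward strand: ccctgggcactcATTGGtaagtcctcggaa
HYOU1, chr11:119057367-119057396, reverse strand: ccgtgacgtggtCCAATcccaggccgacgc

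YAP and TEAD targets spanned the widest range of differences among the lists. Of 19 members 9 fell (47.4%, against 5.65% of all genes) and 1 rose (5.26%, against 7.91%), with a median of -0.43. Above the lowest 25% of expression 7 fell. CYR61 and CTGF, given above, lay far below the rest, whose falls were between -0.50 for CRIM1 and -0.74 for MYOF, a membrane repair protein with 12.36, 12.20, 11.93 and 11.14. RBMS3, the second largest rise above the lowest 25% of expression, is a member of the same list. Without the 48 h library 4 members fell, MYOF and CRIM1 not among them (-0.35 and -0.22), whereas without the 24 h library these genes were at -1.14 and -0.78. The filamin FLNA, an actin cross-linker in the list of cytoskeletal and SRF targets, fell from 12.82 and 12.57 to 12.14 and 11.12 (-1.06, and -0.56 without the 48 h library). In that list 1 of 15 members rose (6.67%, against 7.91% of all genes), the smooth muscle actin ACTA2 (0.62, but 0.42 and 0.47 without the 6 h and the 48 h library). FLNA alone fell (6.67%, against 5.65%), and the median was -0.11. The TEAD site GGAATG was in 5 of 13 promoters of the YAP list (38.5%), against 14% of all promoters and 10.5% of those of the tested genes. Of the 7 called members with an entry 2 hold it, and these fell.
CTGF, chr6:131951524-131951553, reverse strand: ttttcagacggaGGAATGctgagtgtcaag
NUAK2, chr1:205321925-205321954, reverse strand: tcccctagtcccCATTCCtggtgggcgggt

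Immediate early genes, which respond within minutes to growth stimuli, were lower in part. Of 24 members 5 fell (20.8%, against 5.65% of all genes) and 0 rose (median -0.27). JUN, an AP-1 subunit, had 8.83, 8.04, 7.48 and 7.21 (-1.09, SE 0.095), FOSB, its partner, 5.74, 5.74, 4.53 and 4.48 (-1.24, SE 0.249), and EGR1 6.63, 6.39, 5.24 and 5.84 (-0.97, SE 0.182). The windows were apart in each, although for EGR1 the 48 h value was above the 24 h value. The others were FOSL1 (-0.84) and EGR3 (-0.67, SE 0.394), the latter with a counting interval that includes 0. FOSB, EGR1 and EGR3 are in the lowest 25% of expression, so above it 2 members fell. Without the 12 h library 10 members fell, and without the 6 h library JUN was at -0.70. ERK output genes went both ways, with 3 of 16 higher (18.8%, against 7.91% of all genes), 2 lower (12.5%, against 5.65%) and a median of -0.005. ETV5, a transcription factor downstream of ERK, had 12.70, 13.05, 13.39 and 13.90 (0.77), and PHLDA1, an apoptosis regulator, 12.22, 12.48, 12.62 and 13.11 (0.52, but 0.38 without the 6 h library and 0.27 without the 48 h library, where it was not called). DUSP6, the phosphatase that dampens ERK, fell from 11.55 and 11.62 to 11.30 and 10.84 (-0.52), and was not called without the 12 h library (-0.48) or the 48 h library (-0.28). The list shares CCND1 and FOSL1 with those above. In a list of 12 TGF-beta and BMP response genes, LTBP2, a latent TGF-beta binding protein, was the only call (0.92). This share of 8.33% is near the 7.91% of all genes that rose, and without the 48 h library LTBP2 was not called (0.40).

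Part of the interferon response list rose. Of 28 measured genes (37 listed), 6 rose (21.4%, against 7.91% of all genes) and 0 fell, and the median was 0.20. IFIH1, the cytoplasmic sensor of long double-stranded RNA, had 7.26, 7.47, 8.04 and 8.16 (0.74, SE 0.098), IFI6, a mitochondrial survival factor, 8.34, 8.27, 8.86 and 9.20 (0.72), and HERC6, an E3 ligase, 6.08, 6.22, 7.0 and 6.87 (0.78). The windows of each were apart. IFIT1, an RNA-binding antiviral effector, had 7.86, 8.17, 8.39 and 8.10, with overlapping windows and a difference of 0.23. The remaining risers were PARP9, DTX3L and SAMD9L. Without the 48 h library 4 members rose, and above the lowest 25% of expression also 4. Members fell when another library was left out, with 1 fall without the 6 h library, 2 without the 12 h library and 3 without the 24 h library. The interferon-stimulated response element (TTTC, any 2 bases, TTTC) was in 16 of 24 promoters of this list (66.7%), against 3.65% of all promoters and 2.76% of those of the tested genes, and 3 of the 6 risers hold it.
IFIH1, chr2:162318824-162318853, reverse strand: gagaattcgcTTTCCTTTTCtgtttcccgc
IFI6, chr1:27672329-27672358, reverse strand: ggagagagggGAAAATGAAActctgcagag
DTX3L, chr3:122564322-122564351, forward strand: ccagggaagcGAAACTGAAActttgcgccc
Of 9 measured NF-kappaB targets and cytokines 2 fell (22.2%, against 5.65% of all genes) and 0 rose. IL24, a cytokine first found in melanoma differentiation, fell from 5.76 and 5.52 to 3.97 and 2.97 (-2.17, SE 0.335), and CXCL8, interleukin 8, from 5.22 and 5.55 to 4.82 and 3.87 (-1.04, SE 0.272, and -0.56 without the 48 h library), both in the lowest 25% of expression.

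The metabolic and organelle lists had medians between -0.06 and 0.25. In the respiratory chain list, 78 members other than pseudogenes had a median of 0.21, 66 were above 0, and 0 were called. The only 2 calls of the list came from the pseudogenes ATP5A1P7 (0.84) and ATP5C1P1 (0.66), and both were lost without the 24 h library (0.23 and 0.46). Over the whole list of 85, pseudogenes included, 9 members rose without the 24 h library, 5 without the 12 h library and 3 without the 6 h library, and without the 48 h library 3 rose and 2 fell. The 13 mRNAs of the mitochondrial genome had a median of 0.25 with 0 calls. Of 27 lysosomal genes 3 rose and 0 fell (median 0.21), a share of 11.1% near the 7.91% of all genes. They were CTSF, a cathepsin (8.78, 8.89, 9.35 and 9.96, a difference of 0.82, and 0.52 without the 48 h library), GAA, which breaks down lysosomal glycogen (9.23, 9.27, 9.70 and 10.30), and TFEB, the transcription factor of lysosome formation (5.49, 6.12, 6.43 and 6.76, a difference of 0.79 with SE 0.169, which was not called without the 6 h library). GAA was not called without the 48 h library (0.45), and without the 24 h library 5 members of the list rose and 1 fell. TFEB is in the lowest 25% of expression, so above it 2 members rose. In the sterol list, whose median was 0.10, SREBF2, the regulator of the pathway, had 11.74, 11.75, 12.22 and 12.57 (0.65, and 0.48 without the 48 h library) and INSIG1, which retains it in the ER, 10.18, 10.11, 10.83 and 11.07 (0.80). HMGCS1, an early enzyme of the pathway, had 10.67, 10.52, 10.68 and 10.71 and was not called. Of 16 hypoxia genes 3 rose (18.8%, against 7.91% of all genes) and 0 fell, namely BNIP3L (0.64), ADM (0.56) and PDK1 (0.56). ADM is in the lowest 25% of expression, so above it 2 rose. Without the 48 h library 0 rose, with ADM at 0.08 and PDK1 at 0.36, and BNIP3L was also lost without the 6 h library (0.44). Among 17 glycolysis genes HK2, a hexokinase, was the only call (-0.61, and -0.48 without the 48 h library). This share of 5.88% is near the 5.65% of all genes that fell. Among 11 genes of fatty acid synthesis the only call was ACSS2, an acetyl-CoA synthetase (0.68, and 0.42 without the 48 h library). Its share of 9.09% is near the 7.91% of all genes that rose. PYGB, the brain-type glycogen phosphorylase, fell from 13.17 and 12.95 to 12.58 and 12.48 (-0.53, SE 0.017), a call that was lost without the 6 h (-0.42) or the 48 h library (-0.48).

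Among the stress and damage lists, the calls were falls. Of 10 metallothionein and NRF2 target genes 3 fell (30%, against 5.65% of all genes) and all 10 were below 0 (median -0.42). HMOX1, the heme oxygenase, had 10.38, 10.19, 9.86 and 9.23 (-0.74), NQO1, a quinone reductase that is also an AHR target, 14.99, 14.93, 14.50 and 14.27 (-0.57), and GCLM, of glutathione synthesis, 10.11, 9.93, 9.62 and 9.28 (-0.57). Without the 24 h library 7 members fell, and without the 48 h library 1, with HMOX1 at -0.42, NQO1 at -0.46 and GCLM at -0.40. GCLM was also lost without the 6 h library (-0.48). Of 24 p53 targets 3 fell (12.5%, against 5.65% of all genes) and 0 rose (median -0.20), but 3 rose and 4 fell without the 24 h library and 2 rose without the 12 h library. MDM2, the ligase that degrades p53, had 13.12, 12.97, 12.61 and 12.37 (-0.56, SE 0.017), FAS, a death receptor, 8.94, 8.81, 8.44 and 8.05 (-0.63), and PLK3, a stress kinase, 8.30, 8.48, 7.48 and 7.39 (-0.96). All windows were apart, and without the 48 h library 1 of the list fell, with FAS at -0.44 and MDM2 at -0.44. MDM2 was also lost without the 6 h library (-0.48). Of 22 replication-dependent histone genes 4 fell (18.2%, against 5.65% of all genes), among them HIST1H2BL (-1.05), HIST2H2AC (-1.01) and HIST2H2BD (-0.63). HIST2H2AC and HIST2H2BD were not called without the 48 h library (-0.24 and -0.38). But 17 of the 22 are in the lowest 25% of expression, where a polyA library records few of their transcripts, and above it 0 fell. Of 26 matrix and adhesion genes 1 rose (3.85%, against 7.91% of all genes), the integrin ITGB3 (0.65, and 0.48 without the 6 h library). In the same list 3 fell (11.5%, against 5.65%): CDH2, or N-cadherin (8.32, 8.11, 7.53 and 6.80, -1.05, and -0.68 without the 48 h library), the integrin ITGA6 (-0.82, and -0.41 without the 48 h library) and THBS1 (-0.54, SE 0.313, and not without the 6 h or the 48 h library). THBS1 is in the lowest 25% of expression. Among 17 clock genes PER2 alone was called (-0.63), and this share of 5.88% is near the 5.65% of all genes that fell. PER2 is in the lowest 25% of expression, so above it 0 clock genes were called. Among 13 hosts of small nucleolar RNAs SNHG15 (-0.74) and SNHG12 (-0.66) fell (15.4%, against 5.65% of all genes), and neither did without the 6 h library (-0.42 and -0.36).

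**Figure D3:**
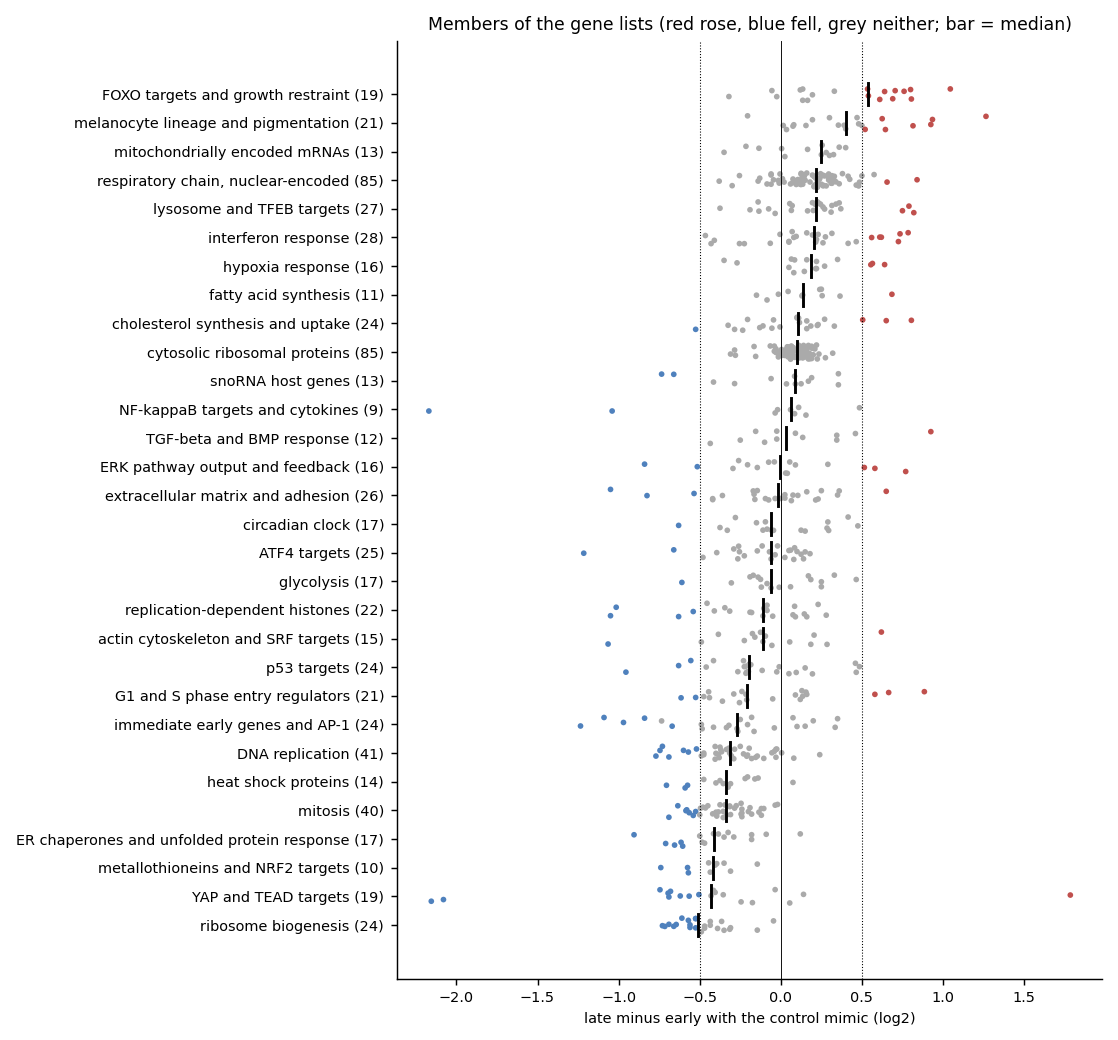
Late minus early difference with the control mimic (horizontal axis, log2) of each member of the gene lists with 9 or more measured genes, 1 point per gene and the number of genes in brackets, with the median as a black bar. Red members rose, blue members fell and grey members did neither; FOXO targets are at the top with a median of 0.54 and ribosome biogenesis at the bottom with -0.51.

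**Figure D4:**
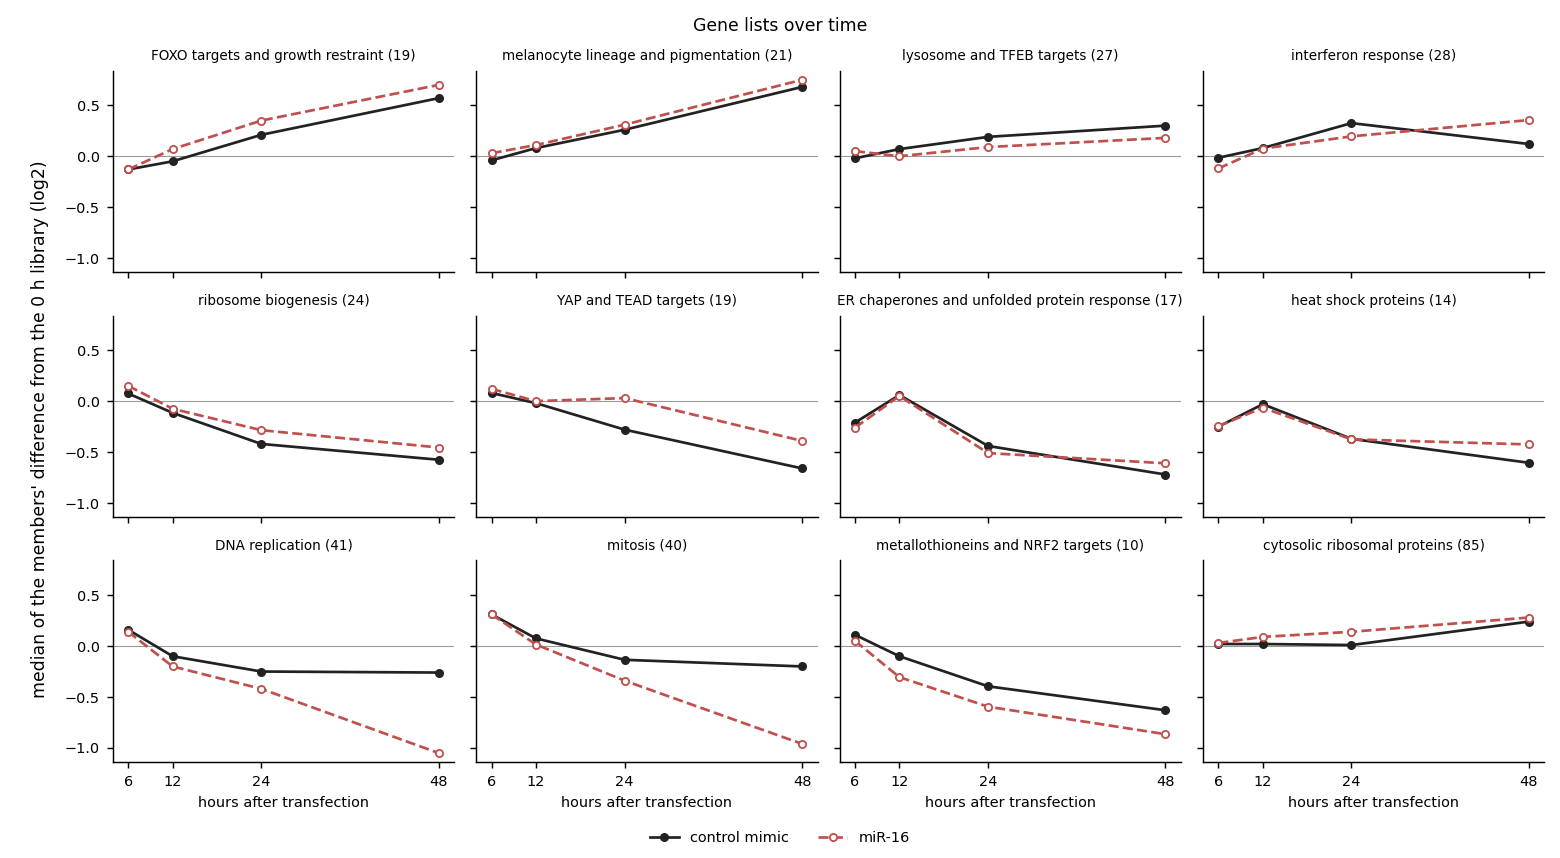
Median over the members of 12 gene lists of the difference from the 0 h library (vertical axis, log2) against hours after transfection, for the control mimic (solid) and miR-16 (dashed), with the number of genes in brackets. All points share the 0 h library; with the control mimic the melanocyte list ends at 0.68 and the ER chaperones at -0.72.

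Sequence and annotation features that the contrast did not use were compared between the groups. A unique annotated gene was found for 13002 of the symbols (87.6%). Among 131 lincRNAs 19.8% rose and 8.40% fell, and among 167 antisense genes 15.0% rose and 12.6% fell, against 7.65% and 4.96% of 11627 protein-coding genes. Processed pseudogenes, which can take reads of their parent genes, went the other way, with 2.79% higher and 6.90% lower of 681. These shares cover all levels of expression, and 585 risers and 414 fallers were among the 3710 genes in the lowest 25%. Whether low expression accounts for the shares of the gene types was not tested. Above the lowest 25% of expression, risers were longer genes than fallers: the median genomic length was 50.5 kb for 549 risers, 22.4 kb for 368 fallers and 35.3 kb for the 8943 others with an annotated 3′UTR. In 5 bins of genomic length with equal numbers of genes, the median difference was -0.05, -0.06, -0.05, 0.00 and 0.09 from the shortest to the longest. In the bin of the longest genes 8.68% rose and 1.98% fell, and in that of the shortest 4.06% rose and 6.29% fell. The GC content of the 3′UTR had no such range, with medians between -0.02 and 0.00. Among 10283 genes with a promoter, the AP-1 site TGANTCA was in 7.37% of the 502 fallers, 3.73% of the 778 risers and 3.91% of the others, and the CCAAT box in 43.0%, 36.1% and 36.9%. The E-box was in 13.3% of fallers, 8.23% of risers and 10.5% of the others, the TEAD site in 14.1%, 10.5% and 10.3%, and the cell cycle homology region in 11.6%, 8.23% and 9.57%. The E2F site was in 2.79% of fallers, 1.93% of risers and 2.65% of the others, the cAMP response element TGACGTCA in 3.19%, 1.93% and 3.49%, and the interferon-stimulated response element in 1.99%, 3.47% and 2.74%. The sterol response element TCACNCCAC (1.39%, 1.03% and 1.07%) and the amino acid response element TGATGNAAT (0.598%, 0.386% and 0.455%) were rare in each group. Within the lists, the AP-1 site was in 1 of 18 promoters of immediate early genes and the cAMP response element in 2, none of them of a gene that fell, and the amino acid response element was in 0 of 20 promoters of ATF4 targets.

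The control mimic itself is an RNA with a seed, and the contrast was examined for it. The sequence taken for it, from the study's list of oligonucleotides, is shown with the seed (positions 2 to 8 from the 5′ end) in capitals. In that list the names of this RNA and of miR-16 appear exchanged, and the values below assume that the transfected miR-CTR had this sequence.
miR-CTR: uUGUACUAcacaaaaguacug
Of 11602 genes with a 3′UTR, 1711 had a match to this seed (TAGTACA, or AGTACAA for the shorter form with an A opposite position 1). Their median late minus early difference was -0.04, against 0.00 for the 9891 genes without a match, and 259 genes with the longest match, TAGTACAA, had -0.045. Of the genes with a match 5.32% rose and 4.68% fell, and of those without 8.07% and 4.98%. Of the genes with the longest match 6.95% rose and 3.09% fell, so the share of falls was not higher there. These groups were not matched for 3′UTR length or expression level. Relative to the 0 h library, genes with the longest match were at a median of -0.12, -0.14, -0.16 and -0.18 from 6 to 48 h with the control mimic. With miR-16 they were at -0.09, -0.02, -0.08 and -0.02. Genes without a match were at 0.02, 0.02, 0.01 and 0.01 with the control mimic and at 0.02, 0, -0.01 and -0.01 with miR-16. These medians all share the 0 h library.

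The same contrast with miR-16 uses none of the 4 control libraries and shows how far the drift recurred in cells of the same line with another mimic. There 1592 genes rose (10.7%) and 1190 fell (8.02%). Of the risers with the control mimic 768 also rose with miR-16, which is 65.4% of the control risers and 48.2% of the miR-16 risers. Of the fallers 402 also fell, which is 48.0% of the control fallers and 33.8% of the miR-16 fallers. The median miR-16 difference was 0.67 over the control risers and -0.52 over the control fallers. Across the 11129 genes above the lowest 25% of expression, Pearson's r between both differences was 0.781 and Spearman's rho 0.772, a description across genes that share their expression level and the culture they started from. LDB3 rose by 2.15 with miR-16, with 6.22, 6.76, 8.04 and 9.24, and DCT by 1.18, with 12.45, 12.59, 13.13 and 14.26. LYPD1 (-2.04), CYP1A1 (-2.15) and HSPB7 (-1.50) fell with both mimics. The medians of the growth restraint list (0.52 with miR-16) and of the melanocyte list (0.42) were near those with the control mimic. Other lists differed more. The ER chaperones had -0.54 with miR-16, against -0.41, and 9 of 17 members fell, against 5. The replication and mitosis lists had -0.72 and -0.80, against -0.32 and -0.34, and 32 of 41 and 37 of 40 members fell. In the other direction, ribosome biogenesis had -0.36, against -0.51, with 6 falls against 12. The YAP and TEAD targets had -0.26, against -0.43, with 6 falls against 9.

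Some of the largest falls were not called with miR-16. CTGF had 10.69, 10.51, 10.70 and 10.29 with miR-16, a difference of -0.10 with overlapping windows, against -2.08 with the control mimic. CYR61 fell with miR-16 as well, from 10.67 and 10.13 to 9.77 and 8.93, by 1.05. ITIH3 had 8.43, 8.43, 8.45 and 9.21 (0.40), PRICKLE1 8.09, 7.62, 7.59 and 7.63 (-0.24) and SLC16A6 12.89, 13.13, 12.98 and 13.10 (0.03), and none was called there. For PYGB the values were 13.38, 13.36, 13.45 and 13.53 (0.12), and for IL24 5.62, 6.09, 5.65 and 6.65 (0.30). Among the rises HAS2 was weaker with miR-16, at 7.56, 7.06, 7.52 and 8.46 (0.68, with windows that overlap). These are side by side values of 1 library each, and the differences between the mimics were not tested.

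**Figure D5:**
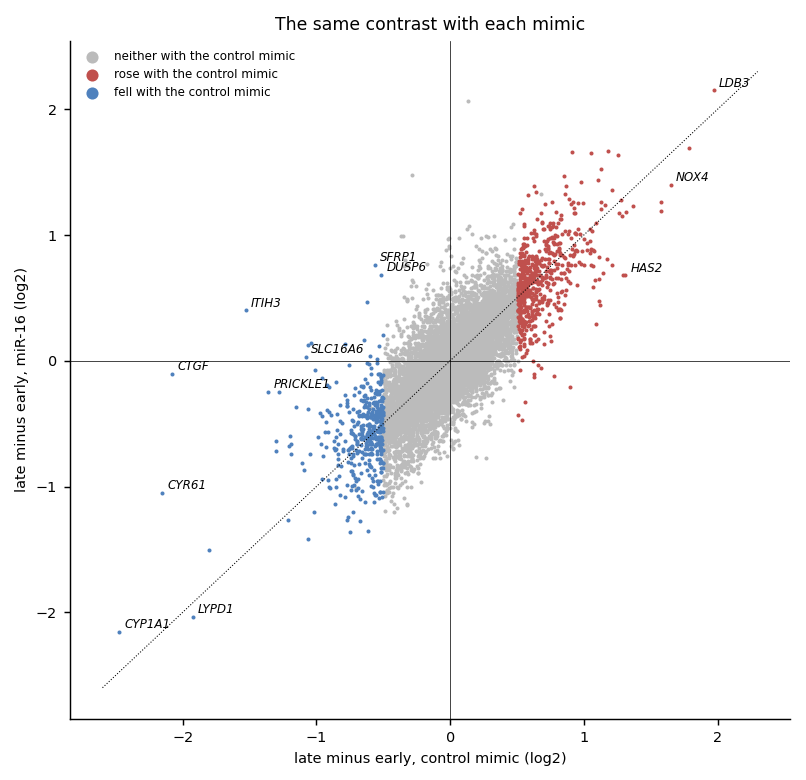
Late minus early difference with miR-16 (vertical axis, log2) against that with the control mimic (horizontal axis, log2), 1 point per gene above the lowest 25% of expression, with the dotted line of equality. Red genes rose and blue genes fell with the control mimic; LDB3, NOX4, LYPD1 and CYP1A1 lie near the line of equality, and CTGF, ITIH3, SLC16A6, DUSP6 and SFRP1 lie well above it.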

How the data were processed

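PolyA RNA of MP41 cells was sequenced in 9 libraries, 1 per time and mimic. Per the labels and the submitters' processing notes, FastQC, STAR 2.4.0a and featureCounts (Subread 1.5.0-p3) were used with hg38 (GRCh38); the annotation and whether strand was counted are not given in the sources used here. The authors deposited 1 table of normalized log2 values with 2 decimals and decimal commas for 14839 genes. Turned back to the linear scale, 100% of values up to 5 were whole multiples, within rounding, of a step of 0.8531 to 1.1493 that belonged to each library, so the deposited log2 unit is log2(reads / size factor + 1). Reads were recovered as multiples of the step, and the counting SE was derived from them, which covers the sampling of reads only. A fold is on the log2(value + 1) scale and understates the change of weak genes.

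The table numbers its columns by time point, and these were read as the rising order of the labelled times. The threshold of 0.5 is the one the study uses. No test was run, since each time and mimic had 1 library and the times within a window are not replicates. The members, gene lists and rules were chosen with earlier results of these data known. Named genes were the 12 largest rises and falls above the lowest 25% of mean expression over the 9 libraries, up to 3 called members per list and direction, a fixed set of genes, and the 3 genes nearest to the threshold on each side. CYP1B1, TIPARP, SLC16A6, SFRP1, SOX10, TYR, TYRP1, MLANA and list members named without 4 values were named after their values were seen. Some genes that the rule chose are not reported here. Gene positions and 3′UTRs (the longest annotated one) came from GENCODE 29, and promoters (250 bases before to 50 after the start) from RefSeq. The calls and the recovery of reads were tested on simulated data. Alternatives were the thresholds, the demand on overlap, quantile normalization, centring, a filter, the pseudocount, and leaving out each library. Python 3.11.15, pandas 2.3.3, numpy 2.4.6 and matplotlib 3.10.9 were used.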

Additional observations from a re-analysis of the deposited data

Results flagged for a closer look

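Above the lowest 25% of expression, 2 genes were called in opposite directions with the control mimic and with miR-16, and the difference was not tested. SFRP1, a secreted antagonist of WNT ligands that was named after its values were seen, had 12.11, 12.12, 11.75 and 11.35 at 6, 12, 24 and 48 h with the control mimic and 12.00, 12.37, 12.69 and 13.21 with miR-16, so that its late minus early difference was 1.33 higher with miR-16. DUSP6 had 11.55, 11.62, 11.30 and 10.84 with the control mimic and 11.79, 12.21, 12.59 and 12.78 with miR-16, a distance of 1.20. Both control falls were lost without the 48 h library. Another 12 genes with opposite calls were in the lowest 25% of expression.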

How the results depend on the processing

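With 1 library per time and mimic, no difference has a replicate check, and depth limits the weak genes most. A threshold of 1 left 183 risers and 125 fallers, the demand that each late library lie past 0.5 from each early one left 273 and 189, and the filter on the lowest 25% of expression left 589 and 424, which follows from fewer genes. Leaving out 1 library gave between 780 and 1921 risers and between 627 and 1610 fallers, under a looser demand on overlap, since fewer values must lie apart. Under quantile normalization, centring, a pseudocount of 5, a threshold of 1.5-fold, overlapping windows and the counting interval, both counts stayed within 1.5 times the reported ones. A list median was counted as turning when it changed sign and had been farther from 0 than its spread within the windows. Medians nearer to 0 than that spread could change sign without being counted. Above the lowest 25% of expression, that of the histones turned to 0.09 and that of the clock genes to 0.04. The clock genes also turned to 0.02 without the 6 h library (range -0.06 to 0.02 over the libraries left out). The NF-kappaB list turned to -0.04 without the 48 h library (range -0.04 to 0.09). The cause was not tested. No difference of a named gene changed sign. Genes with an 8mer to the control seed had -0.045. No paired analysis was possible because the late minus early values come from no test; the mimics share times, not replicate numbers.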
